A study of Mus musculus with 2 samples.

Results

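Efferocytosis, the uptake of dying cells by phagocytes, was followed through 5 genes: the receptors Mertk and Axl and the secreted bridging proteins Gas6, Pros1 (protein S) and Mfge8. They were taken by gene symbol from the 31053 genes listed in both count matrices, where each symbol had exactly 1 row. The cells were bone marrow derived macrophage cultures of wild-type 129Sv mice. Both cultures were grown with 50 ng/ml macrophage colony-stimulating factor (M-CSF) and 10% fetal bovine serum. On day 7 they received 1 µg/ml truncated, non-polymerizing Tamm-Horsfall protein (THP, a kidney protein also called uromodulin) or vehicle, 5% dextrose, for 18 h. The labels do not give the number, sex or age of the mice. There was 1 droplet single-cell library per group, so no test of treatment was possible, and treatment cannot be told apart from culture dish or library preparation.

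Phagocytes recognise a dying cell by the phosphatidylserine on its surface. Mertk and Axl are receptor tyrosine kinases that, with Tyro3, form the TAM family. They do not bind the lipid directly: Gas6 and protein S hold phosphatidylserine through a vitamin K-dependent domain at one end and a TAM receptor at the other. Gas6 serves every TAM receptor, whereas protein S serves Mertk and Tyro3. Mfge8 bridges the same lipid to the αv integrins by another route. Mertk is known from resting tissue macrophages, and Axl from interferon-exposed and inflamed ones.

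By the GENCODE M21 annotation of GRCm38, Mertk (ENSMUSG00000014361) spans positions 128698956 to 128802894 of chromosome 2 on the plus strand. Axl (ENSMUSG00000002602) spans 25757273 to 25788705 of chromosome 7 on the minus strand. Gas6 (ENSMUSG00000031451) spans 13465374 to 13494490 of chromosome 8 on the minus strand. Pros1 (ENSMUSG00000022912) spans 62854307 to 62929346 of chromosome 16 on the plus strand. Mfge8 (ENSMUSG00000030605) spans 79133768 to 79149060 of chromosome 7 on the minus strand.

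All 5 genes matched the RefSeq promoter table (GRCm38.p6). The promoters of Mertk and Mfge8 are shown because these genes stood at opposite ends of the comparison between libraries. Each is the 250 bases before the transcription start, 5′ to 3′ on the gene's strand, with GC boxes (GGGCGG or its reverse complement) in capitals.
Mertk, chr2:128698665-128698914, plus strand: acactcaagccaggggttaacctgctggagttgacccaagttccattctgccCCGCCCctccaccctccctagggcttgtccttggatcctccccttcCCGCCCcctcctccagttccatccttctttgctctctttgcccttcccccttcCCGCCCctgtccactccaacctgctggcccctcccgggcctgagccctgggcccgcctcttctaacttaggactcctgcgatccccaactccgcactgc
Mfge8, chr7:79149061-79149310, minus strand: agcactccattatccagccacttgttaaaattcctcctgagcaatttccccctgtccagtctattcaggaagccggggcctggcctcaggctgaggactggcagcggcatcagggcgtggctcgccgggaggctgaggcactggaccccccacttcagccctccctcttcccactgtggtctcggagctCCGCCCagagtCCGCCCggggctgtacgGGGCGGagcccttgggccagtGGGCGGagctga
The Mertk stretch held 3 GC boxes and the Mfge8 stretch 4, and 63.6% and 65.2% of their bases were G or C, against a median of 52.4% over 32851 promoters. The GC box occurred in 32.7% of promoters of that length. Searched on both strands, neither stretch matched the AP-1 letters TGANTCA (6.75% of promoters), the core of the interferon response element (2.98%), the nuclear receptor half-site AGGTCA (14.0%), CACGTG (6.02%) or the kappa-B site (7.25%). The promoters of Axl, Gas6 and Pros1 matched none of these either.

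The libraries were deep and of similar size. After the cell filter the THP library held 12123 cells with a median of 16113 UMIs (unique molecular identifiers, counted RNA molecules), and the vehicle library 10978 cells with a median of 17223. The 2 libraries shared 42 cell barcodes, 38 of them among kept cells. Levels are given as CPM, UMIs per 1e6 UMIs of the cells summed, with exact Poisson 95% intervals that cover counting error only. The difference between libraries is the log2 ratio of CPM + 1, THP over vehicle. A gene was counted as measured where either library reached 10 CPM. Over the 8012 genes measured in all kept cells, the median log2 ratio was -0.18.

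Summed over all kept cells, Mertk and Pros1 were lower in the THP library, Axl and Gas6 were close to the median of all genes, and Mfge8 was slightly higher. Mertk stood at 9.52 CPM (9.12 to 9.93) with THP and 15.0 CPM (14.4 to 15.5) with vehicle, a log2 ratio of -0.60. Pros1 stood at 10.3 CPM and 14.9 CPM, a log2 ratio of -0.50. Those 2 genes thus shared a direction and a similar size of difference. Axl stood at 38.3 CPM (37.5 to 39.1) and 43.0 CPM (42.1 to 43.9), a log2 ratio of -0.16. Gas6, its ligand, stood at 27.0 CPM (26.3 to 27.7) and 28.6 CPM (27.9 to 29.3), a log2 ratio of -0.08. The signs of Axl and Gas6 are set by the scaling. TMM factors raise every log2 ratio of plain CPM by 0.29, and with them the 2 ratios of CPM + 1 were 0.12 and 0.20. Mfge8 stood at 11.7 CPM (11.3 to 12.2) and 10.3 CPM (9.83 to 10.7), a log2 ratio of 0.18. None of the 5 genes differed by 2-fold, a size that 0.911% of genes passed upwards and 2.97% downwards. Mertk reached it, at -1.0, when both libraries were given the same mix of gated cell types.

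**Figure D1:**
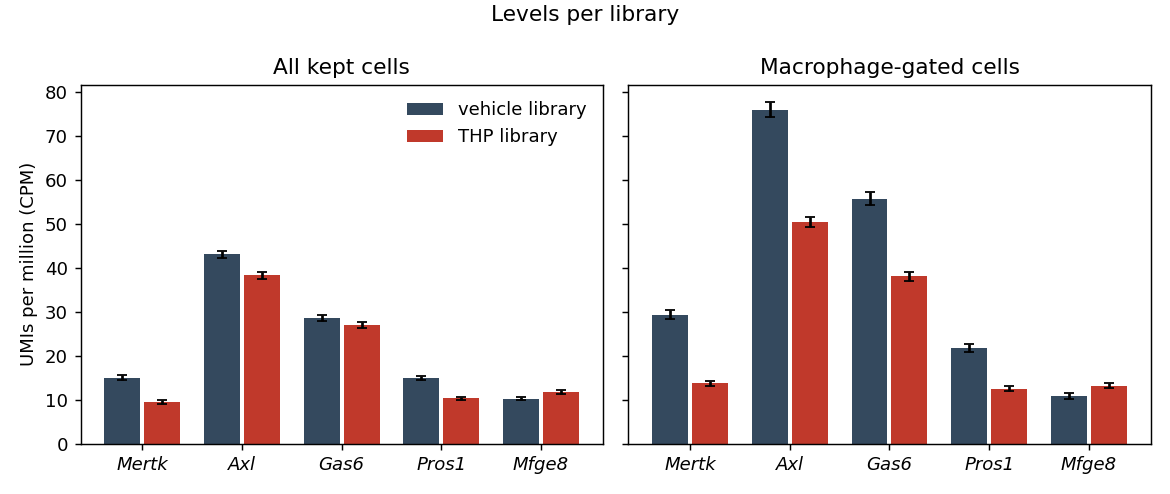
Levels of the 5 genes in the THP and vehicle libraries, in CPM, over all kept cells and over macrophage-gated cells. Bars are levels, and the error lines on them are exact Poisson 95% intervals. Mertk in macrophage-gated cells is 13.7 CPM with THP and 29.4 CPM with vehicle, the widest gap on a ratio scale, and Mfge8 is the gene that is higher with THP.

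The cultures were not macrophages alone. The macrophages held most molecules of these genes, except for Mfge8 in the vehicle library. Each cell was assigned to the type with the highest share of its marker genes detected, and none of the 5 genes was a marker. The macrophage gate (C1qa, C1qb, C1qc, Adgre1, Mrc1, Fcgr1, Ms4a7 and Trem2) took 5842 THP cells, 48.2% of the library, and 3563 vehicle cells, 32.5%. It held 65.8% and 46.4% of all UMIs. Of Mertk UMIs it held 94.7% (THP) and 90.9% (vehicle). The corresponding shares were 86.7% and 81.9% for Axl and 92.6% and 90.3% for Gas6. Pros1 and Mfge8 were spread more widely, with 80.1% and 67.6% of Pros1 UMIs and 73.9% and 48.9% of Mfge8 UMIs inside the gate. When both libraries were given the same mix of gated types, the log2 ratios over all cells were -1.0 for Mertk, -0.50 for Axl, -0.48 for Gas6, -0.70 for Pros1 and 0.12 for Mfge8.

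Mertk was the gene most limited to macrophages. Its level was 13.7 CPM (THP) and 29.4 CPM (vehicle) in that gate, against 1.62 and 2.56 CPM in the monocyte gate. In the neutrophil gate it was 1.35 and 2.80 CPM, and in the myeloid progenitor gate 0.644 and 0.775 CPM. Monocytes and neutrophils had overlapping intervals in both libraries, so they were not ordered. Stromal cells had 0 Mertk UMIs in 56 THP cells, which allows up to 2.62 CPM, and 1 UMI in 49 vehicle cells. B-lineage cells had 0 UMIs in 113 THP cells and in 70 vehicle cells, which allows up to 5.93 and 7.65 CPM.

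The few stromal cells, a type that secretes collagen, carried Mfge8 RNA at a much higher level than macrophages did. It stood at 204 CPM (179 to 232) in the THP stromal gate and 184 CPM (165 to 204) in the vehicle one. These 56 and 49 cells held 8.86% and 16.1% of all Mfge8 UMIs. The macrophage gate stood at 13.2 CPM (12.6 to 13.8) with THP and 10.8 CPM (10.2 to 11.5) with vehicle. Axl was 196 CPM (172 to 224) in THP stromal cells and 99.7 CPM (85.9 to 115) in vehicle stromal cells. Its macrophage levels were 50.5 and 75.9 CPM, so both libraries had the stromal level above the macrophage level. Pros1 was 58.5 and 75.6 CPM in stromal cells and 12.5 and 21.8 CPM in macrophages. For Gas6 the order was not the same in the libraries: 57.6 CPM (44.5 to 73.3) in stromal cells and 38.0 CPM in macrophages with THP, and 18.2 CPM (12.6 to 25.5) and 55.6 CPM with vehicle. The vehicle stromal gate fell under the 50 cells required for a ratio, so only levels are given there. The stromal gates were also unlike: summed stromal markers were 6673 CPM (THP) and 16443 CPM (vehicle), and median UMIs 19178 and 36529. Timp1, Tagln and Acta2 led the THP gate, and Col1a2, Col1a1 and Sparc the vehicle gate. The part of these differences in the stromal levels was not tested.

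In monocytes, neutrophils, myeloid progenitors and B-lineage cells all 5 genes were below their macrophage level, although the Mfge8 intervals of macrophages and B-lineage cells overlapped in both libraries. Under the stricter gate described below, vehicle Mfge8 was 9.69 CPM (1.17 to 34.99) in B-lineage cells, from 2 UMIs, and 8.34 CPM in macrophages. In monocytes, Axl was 9.58 and 11.8 CPM (THP and vehicle), Gas6 4.86 and 4.40 CPM, and Mfge8 6.00 and 5.81 CPM. Pros1 had the widest monocyte gap, 5.38 against 8.87 CPM, a log2 ratio of -0.63. In myeloid progenitors each of the 5 stood at 6.00 CPM or less in both libraries. Neutrophil levels depended on cells near the gate's edge. Axl in that gate was 13.3 and 16.7 CPM, and 2.57 and 8.24 CPM when a cell needed a lead of 25 percentage points over the next type. Pros1 there was 5.83 and 10.8 CPM, and 1.17 and 2.49 CPM under that stricter gate. Cells that no gate took (731 and 493) had Mertk at 4.01 and 11.4 CPM and Mfge8 at 8.75 and 23.1 CPM. Both were lower with THP by 2-fold, as were 4.21% of genes in those cells, and summed stromal markers there were 102 and 185 CPM; their part in the Mfge8 gap was not tested.

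**Figure D2:**
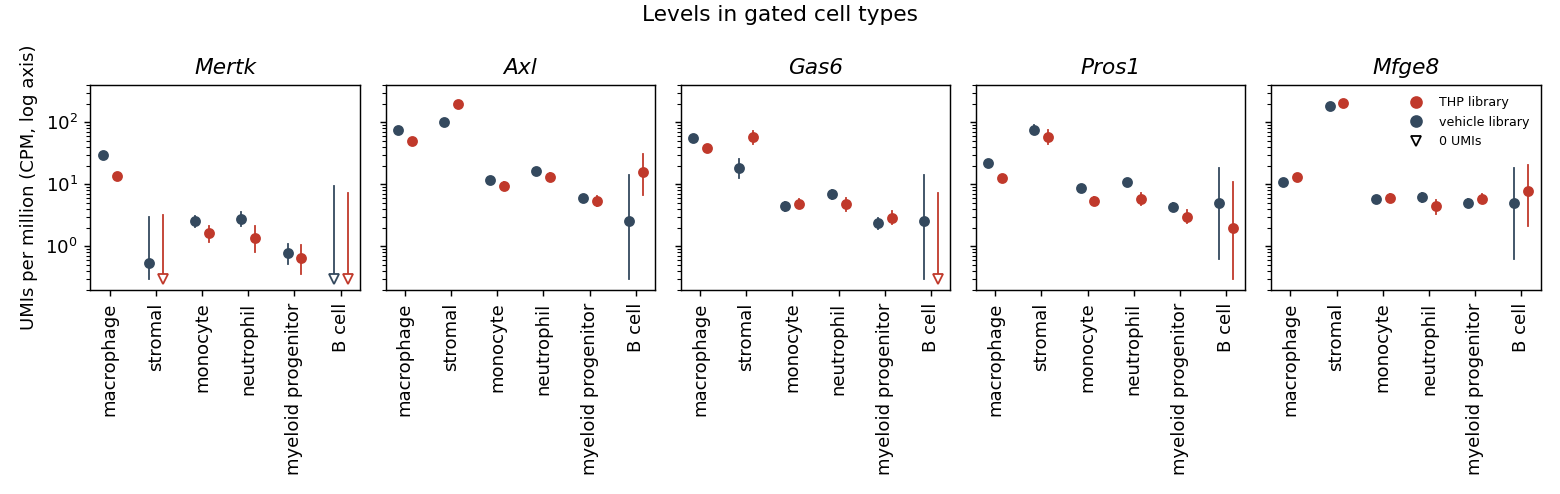
Level of each gene in CPM by gated cell type and library, on a log axis, with exact Poisson 95% intervals cut at the lower edge. Open triangles mark 0 UMIs. Mertk is highest in macrophages, whereas Mfge8 is highest in stromal cells at 204 CPM (THP) and 184 CPM (vehicle).

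Within macrophage-gated cells, both receptors and both TAM ligands were lower in the THP library, and Mfge8 was higher. Mertk stood at 13.7 CPM (13.1 to 14.3) with THP and 29.4 CPM (28.3 to 30.5) with vehicle, a log2 ratio of -1.05 (-1.13 to -0.97). Per cell that is 0.347 against 0.793 Mertk UMIs. Only 1.91% of the 7889 genes measured in these cells had a lower ratio. Mertk was the 1 member past 2-fold, a size that 2.37% of genes passed downwards and 0.963% upwards, with a median over all genes of -0.16. TMM factors, RLE factors and subtraction of the trend with transcript length brought it within 2-fold, at -0.79, -0.79 and -0.74.

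Axl stood at 50.5 CPM (49.3 to 51.6) with THP and 75.9 CPM (74.2 to 77.6) with vehicle in the macrophage gate. Its log2 ratio was -0.58. The ligand shared with Mertk, Gas6, stood at 38.0 CPM (37.0 to 39.0) and 55.6 CPM (54.2 to 57.1), a log2 ratio of -0.54. Axl and Gas6 therefore differed by similar amounts on the CPM scale. Pros1 stood at 12.5 CPM (11.9 to 13.1) and 21.8 CPM (20.8 to 22.7), a log2 ratio of -0.75. Mfge8 stood at 13.2 CPM with THP and 10.8 CPM with vehicle, a log2 ratio of 0.26 (0.16 to 0.36), and 90.7% of genes had a lower ratio. In this gate the sign of each of the 5 ratios held under all 7 alternatives run.

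Long transcripts tended to be lower in the THP library: across the 7888 macrophage-measured genes with a length, Spearman's rho of the ratio with the longest transcript's length was -0.58 (genes are not independent replicates). Mertk and Axl have long transcripts, 4302 and 4265 bases, and Mfge8 a shorter one, 2330 bases. With the length trend subtracted, the macrophage log2 ratios were -0.74 for Mertk, -0.28 for Axl, -0.47 for Gas6, -0.56 for Pros1 and 0.30 for Mfge8. Of all genes, 1.98% lay below Mertk on that scale, 3.85% below Pros1, 6.55% below Gas6, 15.6% below Axl and 85.9% below Mfge8.

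The macrophage markers define the gate and so are not independent of it. Except for the mannose receptor (Mrc1), they differed less between the libraries on the CPM scale than Mertk, Axl, Gas6 and Pros1 did. Summed over the 8 markers, the level was 2694 CPM with THP and 2838 CPM with vehicle, and none was at 0. The log2 ratios of 7 of them lay between -0.17 (C1qa) and 0.30 (Adgre1), and that of Mrc1 was -0.79. Summed stromal markers in the macrophage gate were 17.9 CPM with THP and 76.5 CPM with vehicle, against 6673 and 16443 CPM in the stromal gate. Summed neutrophil markers were 2482 and 2205 CPM. The part of these other cells' RNA in the 5 ratios was not tested.

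The receptors and Gas6 followed C1q, a complement protein made by mature macrophages, and their log2 ratios, like that of Pros1, were furthest below 0 where C1q was highest. Macrophages were divided by their C1qa, C1qb and C1qc UMIs per 10000 UMIs into cells under 1, from 1 to under 10, and at least 10. These bins held 1653, 2098 and 2091 THP cells and 1035, 1214 and 1314 vehicle cells. Mertk was 6.67 CPM (THP) and 13.01 CPM (vehicle) in the lowest bin, 8.73 and 17.5 CPM in the middle bin, and 24.3 and 56.3 CPM in the highest. Its log2 ratios were -0.87, -0.93 and -1.18. In the highest bin Mertk was past 2-fold, as were 3.09% of genes in that direction. Axl spanned the widest range along C1q, from 20.6 and 25.4 CPM in the lowest bin to 103 and 170 CPM in the highest, and its log2 ratio went from -0.29 to -0.72. Gas6 went from 24.9 and 29.1 CPM to 52.4 and 89.9 CPM, with log2 ratios of -0.22, -0.41 and -0.77. Pros1 was 12.3, 11.4 and 13.9 CPM along the bins with THP and 19.9, 19.7 and 25.5 CPM with vehicle, with log2 ratios of -0.65, -0.74 and -0.84. Mfge8 was highest in the lowest bin, at 24.7 CPM (THP) and 14.3 CPM (vehicle), a log2 ratio of 0.75. It was 9.13 and 10.3 CPM in the middle bin, a log2 ratio of -0.16 (-0.34 to 0.02), and 9.28 and 8.32 CPM in the highest, a log2 ratio of 0.14 (-0.05 to 0.34). C1q genes are also markers of the gate, so the bins are not independent of it.

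Macrophages with Vsig4, Cd209f, Cd209g, Cd163 and Folr2, genes of tissue-resident-type macrophages, had the highest receptor levels. The 298 THP cells and 272 vehicle cells with at least 60% of these markers had Axl at 194 and 284 CPM, against 39.9 and 58.2 CPM in the other macrophages. Mertk was 42.1 and 81.4 CPM in them, against 11.6 and 24.9 CPM in the others. Within each library the Vsig4 cells thus exceeded the others by log2 differences of 2.25 and 2.27 for Axl and 1.77 and 1.67 for Mertk. The library difference inside the Vsig4 cells was -0.93 for Mertk, -0.55 for Axl, -0.71 for Gas6 and -0.90 for Pros1. Mfge8 was 7.00 CPM (5.47 to 8.83) and 8.23 CPM (6.31 to 10.6) there, and those intervals overlapped.

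Osteoclast-like macrophages, those with at least 60% of Atp6v0d2, Mmp12, Acp5, Ctsk, Ocstamp and Dcstamp, stood out for Mfge8. The 329 THP cells had 54.4 CPM (50.3 to 58.7) and the 292 vehicle cells 22.1 CPM (19.4 to 24.98), a log2 ratio of 1.26 (1.06 to 1.47). A difference of 2-fold upwards was passed by 0.906% of genes in these cells. In the other macrophages Mfge8 was 9.57 CPM (9.05 to 10.1) with THP and 9.31 CPM (8.67 to 9.98) with vehicle, a log2 ratio of 0.03, and the intervals overlapped. Summed stromal markers in the osteoclast-like cells were 21.2 CPM with THP and 124 CPM with vehicle, and their part in the Mfge8 levels was not tested. Mertk in osteoclast-like cells was 10.2 and 23.3 CPM, a log2 ratio of -1.12, and 2.11% of genes passed 2-fold downwards. Gas6 was lower in them than in other macrophages of both libraries, 21.2 against 39.5 CPM with THP and 25.7 against 59.6 CPM with vehicle.

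On the CPM scale Axl stood at the same level in both libraries in interferon-high macrophages. In the 446 THP cells and 291 vehicle cells with at least 60% of 10 interferon-stimulated genes it was 63.5 CPM (59.7 to 67.4) and 63.4 CPM (58.7 to 68.5), a log2 ratio of 0.00 (-0.14 to 0.14). In the other macrophages it was 48.8 CPM (47.6 to 50.0) and 77.4 CPM (75.5 to 79.3), a log2 ratio of -0.65. Interferon-high cells were thus above the others with THP and below them with vehicle. With the length trend subtracted the Axl log2 ratios were 0.29 and -0.35, so the equal level in interferon-high cells holds on the CPM scale alone. Mertk was 14.5 against 13.6 CPM with THP and 26.3 against 29.7 CPM with vehicle, in interferon-high and other cells, and its log2 ratios were -0.81 and -1.07. Macrophages high in MHC class II, which present antigen, had an Axl log2 ratio of -0.16, against -0.82 in the others, and with the length trend subtracted 0.13 against -0.51. Mfge8 was 17.0 and 10.2 CPM in class II high cells, a log2 ratio of 0.69, and 11.5 and 11.3 CPM in the others. The 4 subsets overlap one another, and differences between subsets were not tested, as each library is 1 sample. Membership rests on markers detected, so it is not independent of depth. Median UMIs of interferon-high cells were 32853.5 (THP) and 31463 (vehicle), against 20856.5 and 23529 in the others. Those of osteoclast-like cells were 31990 and 35222.5, against 20859 and 23062. Those of class II high cells were 27157.5 and 29273, against 20134.5 and 21732. For Vsig4 cells the gap was wide with THP, 28677.5 against 21101, and small with vehicle, 23975.5 against 23909. The part of depth in the subset levels was not tested.

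**Figure D3:**
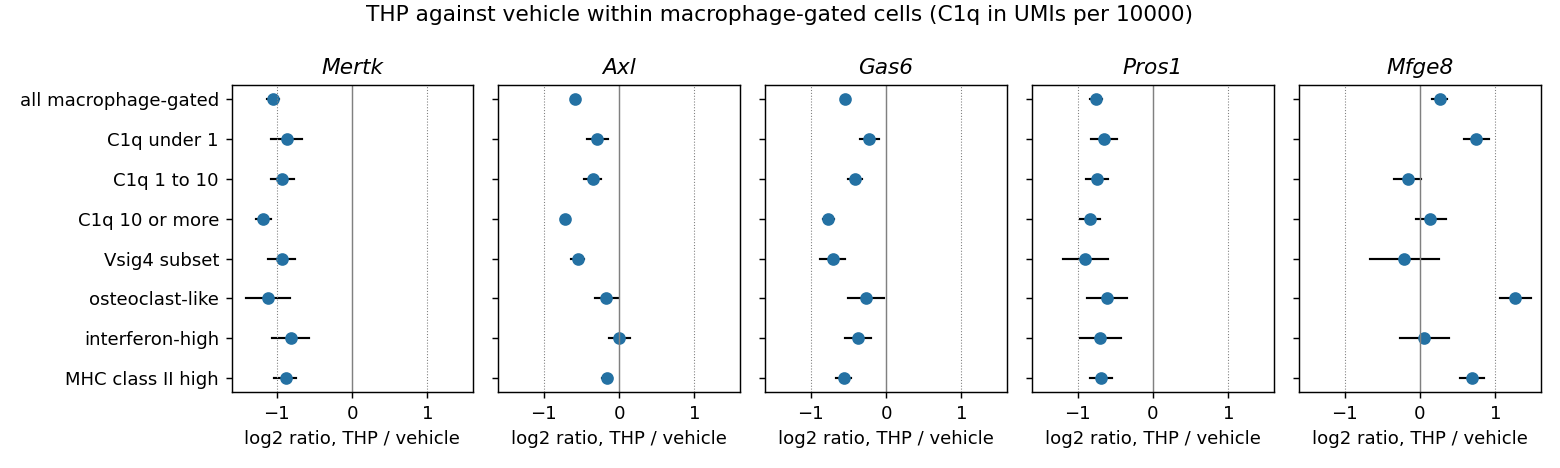
Log2 ratio of THP over vehicle for each gene within subsets and C1q bins of the macrophage gate, with counting 95% intervals and dotted lines at 2-fold. Mertk lies below 0 in every subset shown, Axl is at 0.00 in interferon-high cells, and Mfge8 reaches 1.26 in osteoclast-like cells.

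Shares of cells with a UMI were also lower with THP for 4 of the 5 genes. Each macrophage-gated cell was thinned to 10000 UMIs, which left 5393 THP cells and 3333 vehicle cells and excluded 449 and 230. With exact Clopper-Pearson intervals, the share with a Mertk UMI was then 11.1% (10.2 to 11.9) for THP and 21.9% (20.5 to 23.3) for vehicle. Without thinning the shares were 22.1% and 39.6%. For Axl the thinned shares were 23.4% and 30.5%, for Gas6 26.2% and 35.1%, and for Pros1 11.4% and 17.9%. Mfge8 was found in 7.01% (6.34 to 7.72) and 6.75% (5.92 to 7.66) of cells, with overlapping intervals. B-lineage cells, which should lack the receptors, had a Mertk UMI in 0 of 113 THP cells and 0 of 70 vehicle cells, but at a median of only 2621 and 3436 UMIs. They had an Axl UMI in 5.31% (1.97 to 11.2) and 1.43% (0.0362 to 7.70) of cells.

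Mertk and Axl were found together more often than their separate shares multiply to. Both were detected in 4.52% of thinned THP macrophages, where the product of the shares is 2.59%, and in 11.0% of vehicle ones, where it is 6.68%. The ratios of observed share to product were 1.75 and 1.65. Mertk with its ligand Gas6 gave 1.40 and 1.41, and Mertk with Pros1 gave 1.15 and 1.26. Mfge8 did not follow the receptors: its ratio was 0.825 and 0.989 with Axl, and 0.932 and 0.853 with Mertk. No UMI of any of the 5 genes was found in 43.2% of THP cells and 32.1% of vehicle cells. Exactly 3 of the 5 were found in 3.58% and 9.51%.

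**Figure D4:**
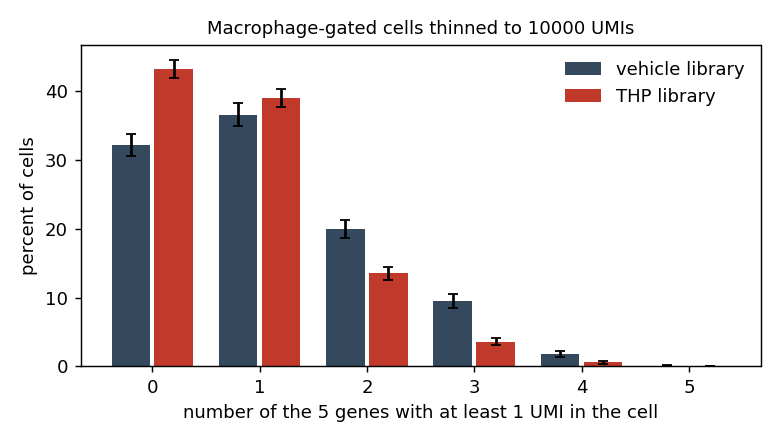
Percent of macrophage-gated cells, thinned to 10000 UMIs, by how many of the 5 genes had at least 1 UMI in the cell, with exact binomial 95% intervals. Cells with 0 of the genes are more frequent in the THP library (43.2% against 32.1%), and cells with 3 in the vehicle library (9.51% against 3.58%).

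The wider uptake pathway was described with 78 other genes in 6 role groups. Over all kept cells, 57 of them were measured. Of these, 2 were higher by 2-fold (Nr1h3 and Socs3), 2 were lower (Vav3 and Timp3), and the median log2 ratio was -0.17, against -0.18 over all genes, of which 0.911% were higher and 2.97% lower. In macrophage-gated cells 56 were measured, 1 was higher (Socs3), 3 were lower (Vav3, Timp3 and S1pr1), and the median was -0.31, against -0.16 over all genes, of which 0.963% were higher and 2.37% lower. The ratios below are those of all kept cells, with the macrophage gate beside them where given.

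Among the 16 other receptors, 8 were measured and none passed 2-fold. Cd300lf had a log2 ratio of -0.82, Cd300lb -0.56 and the integrin subunit Itgb5, which takes part in Mfge8 uptake, -0.41. Stab1 (stabilin-1), a direct phosphatidylserine receptor, was at 0.38, and at -0.02 in macrophages. Tyro3, the remaining TAM receptor, was close to 0, at 0.102 and 0.0963 CPM. Among 10 other bridging or coating proteins, 5 were measured and none passed 2-fold. Thbs1 (thrombospondin-1) was lowest at -0.68, and Anxa1, Calr and Lgals3 lay between -0.16 and 0.03.

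Engulfment signalling, the Rac-activating machinery behind the receptors, had 12 of 14 genes measured, of which 1 was lower by 2-fold. That was the exchange factor Vav3, at 34.6 CPM with THP and 70.3 CPM with vehicle, a log2 ratio of -1.0, and -1.07 in macrophages. Dock2, Dock1 and Elmo1, parts of the exchange complexes for Rac, were at -0.76, -0.74 and -0.59. Of the 12 genes, 8 had ratios below 0 and 4 above, with Rhog highest at 0.39. Their median was -0.33, and that of all measured genes was also below 0, at -0.18. The share of all genes below 0 was not computed. With the length trend subtracted, Vav3 was at -0.61 and Dock2 at -0.29. Digestion and lipid handling had 17 of 19 genes measured, and 1 was higher by 2-fold. Nr1h3, which encodes the lipid-sensing nuclear receptor LXRα, was 26.4 CPM with THP and 12.4 CPM with vehicle, a log2 ratio of 1.03. In the macrophage gate its ratio was 0.61. Ppard, the cholesterol exporter Abcg1 and Abca7 were at -0.58, -0.48 and -0.38.

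Shedding and feedback genes held the widest differences of the pathway in both directions. Socs3, an inhibitor of cytokine signalling that TAM receptors are known to induce, was 12.6 CPM with THP and 2.27 CPM with vehicle, a log2 ratio of 2.05. In macrophages it was 13.2 and 1.36 CPM, a log2 ratio of 2.59. Timp3, an inhibitor of the sheddase Adam17 that cuts Mertk from the cell surface, was 8.73 and 31.4 CPM, a log2 ratio of -1.74. Timp3 was also among the 10 leading genes of the vehicle stromal gate, and in macrophages it was 4.12 and 13.1 CPM. Adam17 itself was at 0.20, and at -0.01 in macrophages. Rhbdf2, which guides Adam17 to the surface, was at 0.54, and Adam10 at -0.68. Of 7 measured genes in this group, 1 was higher and 1 lower by 2-fold.

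Find-me and do-not-eat-me genes, 8 of 11 measured, had none past 2-fold over all cells. S1pr1, a receptor for the attractant sphingosine-1-phosphate, was at -0.89, and at -1.36 in macrophages, where it passed. Gpr132 was at 0.75, Cd24a at -0.75 and the fractalkine receptor Cx3cr1 at 0.40.

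Mertk is a known LXR target, and Axl is known to be induced by interferon, so both gene groups were examined too. Their part in the Mertk and Axl ratios was not tested. Of 7 LXR genes, 6 were measured over all cells and only Nr1h3 itself passed 2-fold. Abcg1 was at -0.48, Srebf1 at -0.13 and Apoe at 0.38. In macrophages 6 of the 7 had ratios below 0, and none passed 2-fold. Their median there was -0.25, and that of all measured genes was also below 0, at -0.16. Of 10 interferon genes, 7 were measured over all cells and 1 passed 2-fold, Cxcl10 at 1.92, a chemokine that other inflammatory signals also raise. Isg15 was at 0.76, Rsad2 at 0.73 and Ifit2 at -0.74. In macrophages 5 of the 10 interferon genes had ratios above 0 and 5 below, with a median of 0.14, against -0.16 over all genes.

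**Figure D5:**
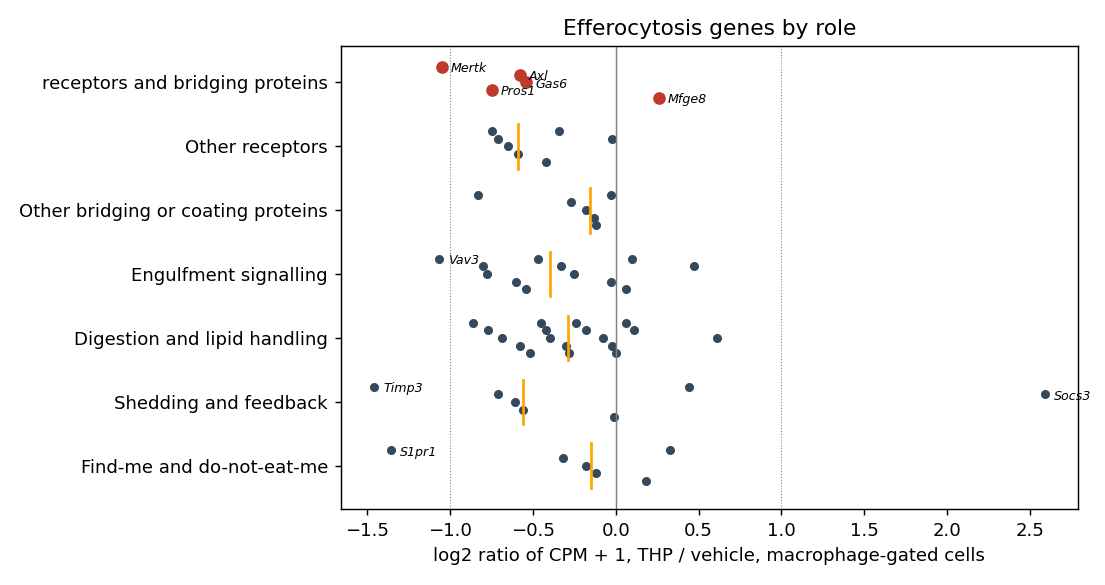
Log2 ratio of THP over vehicle in macrophage-gated cells for the 5 genes (red) and the 56 measured pathway genes by role, with orange lines at each group's median and dotted lines at 2-fold; vertical offsets only separate points. Mertk (-1.05), Vav3, Timp3 and S1pr1 lie below the lower 2-fold line, and Socs3 (2.59) lies above the upper one.

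Across the 11 combinations of gate and library with at least 50 cells (49 vehicle stromal cells excluded), Pearson's r of log2(CPM + 1) named the genes with the most similar pattern. The groups share 2 libraries and differ in depth, so r is a description. Mertk was closest to the lysosomal protease gene Tpp1 (0.982), Mfsd11 (0.974) and Rab3il1 (0.963). Gas6 was closest to Lgals3bp (0.983), Twf1 (0.970) and the lysosomal sterol carrier Npc2 (0.964). Axl was closest to Pdlim4 (0.979), Luzp1 and Frmd6, and Pros1 to Lima1 (0.975), Apbb2 and Ppfibp1. Mfge8 was closest to Nr2f6 (0.980), the actin-binding Tpm1 (0.980) and Kdelr1 (0.975). For Axl, Pros1 and Mfge8, each of these closest genes had its highest level in the THP stromal gate, and for Mertk in the vehicle macrophage gate. Between the 5 genes, r ran from -0.100 for Mertk and Mfge8 to 0.910 for Gas6 and Pros1.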

How the data were processed

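Single-cell RNA was measured in 2 libraries, 1 per group. The deposited values are raw UMI counts per gene and barcode; per the file headers they carry software version 3.1.0, and the submitters' processing notes name Cell Ranger, STAR, bcl2fastq and mm10. Barcodes with at least 500 genes, at least 1000 UMIs and at most 10% mitochondrial UMIs were kept, and doublets were not removed. Summed UMIs were scaled to CPM (Python 3.11.15). The log2 ratio used a pseudocount of 1 CPM, which understates changes of low genes. A gene counted as measured where either library reached 10 CPM. Intervals (95%) and limits for 0 UMIs (3 counts) cover counting error only.

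A cell was gated to the type, of 11, with the highest share of markers detected, given at least 3 markers and no tie. Of macrophage-gated cells, 9.45% (THP) and 13.7% (vehicle) lay within 10 percentage points of the next type. Alternatives were TMM and RLE factors (edgeR 4.0.16), a pseudocount of 0.1, no cell filter, omission of the top 5% of cells by UMIs, equal weight per cell, the same mix of types, a lowess trend on transcript length (GENCODE M21, statsmodels 0.14.6), summed-marker and stricter gates, and thinning. The scripts were tested on simulated data.

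Genes, lists and markers were chosen with earlier results of these data known. The gate scoring, subset thresholds and C1q bins were set after the files were seen. Of each pathway group, the 4 measured genes with the largest ratio in either direction are named, others after their values were seen. For each of the 5 genes, the 3 with the highest r were named among genes at 10 CPM or more in at least 3 groups. No p-value was computed.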

Additional observations from a re-analysis of the deposited data

Results flagged for a closer look

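Mfge8 had opposite directions in 2 gated cell types. Its log2 ratio of THP over vehicle was 0.26 in macrophage-gated cells and -0.41 (-0.78 to -0.03) in neutrophil-gated cells, where the levels were 4.41 and 6.17 CPM from 62 and 130 UMIs. With 1 library per group this difference was not tested. Under the stricter gate the neutrophil levels were 2.80 CPM with THP and 1.15 CPM with vehicle, from 12 and 6 UMIs, with overlapping intervals (1.45 to 4.90 and 0.422 to 2.50). Summed stromal markers in the neutrophil gate were 15.2 CPM with THP and 276.5 CPM with vehicle, and their part in the Mfge8 levels was not tested.

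Axl had opposite directions between libraries when subsets of macrophages were set against the remaining macrophages. Interferon-high cells were above the others by 0.37 on the log2 scale in the THP library and differed by -0.28 in the vehicle library. Osteoclast-like cells were above the others by 0.24 in the THP library and differed by -0.22 in the vehicle library. These differences were not tested. Summed stromal markers in interferon-high cells were 20.8 CPM with THP and 132 CPM with vehicle, and their part in the Axl levels was not tested.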

How the results depend on the processing

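With 1 library per group there is no estimate of spread between cultures, and a log2 ratio is said to have moved when it left its counting interval. In macrophage-gated cells all 5 signs held under all 7 alternatives. Over all kept cells the signs of Mertk, Pros1 and Mfge8 held under all 8, and those of Axl and Gas6 under 5 of 8. No paired analysis was possible because each group has 1 library. The 0.1 CPM pseudocount and the use of every barcode moved none of the 5 ratios over all cells.

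Values over all cells are given for Mertk, Axl, Gas6, Pros1 and Mfge8 in that order. TMM factors gave -0.34, 0.12, 0.20, -0.24 and 0.44, and RLE factors -0.35, 0.11, 0.19, -0.24 and 0.43. The same mix of types gave -1.0, -0.50, -0.48 and -0.70 for the first 4 genes. Subtraction of the length trend gave -0.29, 0.14, 0.01 and -0.29. Equal weight per cell moved Axl to -0.09, Pros1 to -0.39 and Mfge8 to 0.28. Omission of the top 5% of cells moved Mfge8 to 0.32.

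In macrophage-gated cells TMM gave -0.79, -0.31, -0.27, -0.50 and 0.51, and RLE -0.79, -0.32, -0.28, -0.50 and 0.51. These factors raise every log2 ratio of plain CPM by 0.27, and ratios of CPM + 1 by no more than that. Subtraction of the length trend gave -0.74, -0.28, -0.47 and -0.56 for the first 4 genes. The stricter gate (4298 and 2323 cells) gave Mertk -1.17, Axl -0.75, Gas6 -0.66 and Mfge8 0.59. Equal weight per cell gave Mertk -1.13 and Gas6 -0.62. Axl moved to -0.63 with the summed-marker gate and to -0.65 without the top 5% of cells. Mertk stayed past 2-fold under 4 of the 7 alternatives.

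The 2 pathway genes higher by 2-fold became 1 with equal weight per cell. The 2 lower became 1 with TMM, RLE, equal weight or the length trend. At a 1.5-fold threshold 3 were higher and 11 lower. The share of all genes past 1.5-fold was not computed, and the median log2 ratio over all genes was itself below 0, at -0.18. Thinned to 3000 UMIs, the shares of macrophage-gated cells with a UMI were lower by construction: Mertk 4.20% (THP) and 8.54% (vehicle), Axl 11.5% and 18.0%, Gas6 10.35% and 15.6%, Pros1 3.83% and 5.97%, and Mfge8 2.42% and 2.35%. Under the stricter gate all types kept their position for Mertk, 6 of 6 in the THP library, where stromal and B-lineage cells tied at 0, and 5 of 5 in the vehicle library. Of the 6 types in the THP library 3 kept their position for Axl, 3 for Gas6, 3 for Pros1 and 2 for Mfge8. In the vehicle library 1 of 5 did for each of Axl, Gas6, Pros1 and Mfge8. The cause of these moves was not tested. At neutrophil and B-cell depths, levels of a few UMIs could not be told from 0.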
